A study of Rattus norvegicus and Bos taurus with 12 samples.

Results

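The genes described here encode collagen chains and the enzymes and chaperones that fold, modify, trim and cross-link them. They were chosen by symbol: every listed gene named COL followed by a collagen number, and the P4HA, P3H, CRTAP, PLOD, COLGALT, SERPINH1, FKBP10, PCOLCE and LOX families. The table of bovine right ventricular (RV) cardiac fibroblasts (Cfib) lists 25 such genes among 2115, of which 10 encode collagen chains and 15 encode enzymes or chaperones. The table of adult rat ventricular myocytes (ARVM) lists 36 among 7052, of which 16 encode chains and 20 encode enzymes or chaperones. Together the tables hold 40 of these symbols, 21 of them in both. Both tables hold only genes that the authors had already selected as differing, so a gene that is not listed cannot be read as unchanged.

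RNA was sequenced from 4 groups of 3 libraries each. CO Cfib came from the RV free wall of neonatal calves housed at ambient Denver altitude, and PH Cfib came from calves kept at reduced atmospheric pressure, in which pulmonary hypertension (PH) develops. All of these fibroblasts were grown in culture to confluence and then held without serum before harvest, so none of them was measured directly from tissue. The sample labels instead describe the 2 Cfib groups by the altitude of the cows that supplied serum, and the names CO and PH follow the sample titles and the study's methods. Freshly isolated ARVM came from adult Sprague Dawley rats, and PH-CM ARVM were kept for 7 days in conditioned media from PH Cfib. Their libraries are named by the numbers of the sample titles, fresh 4 to 6 and PH-CM ha2, ha209 and ha211. The ARVM comparison therefore combines the media with a period of culture, and the parts of these 2 cannot be told apart here because no ARVM cultured without PH-CM were analysed. The Cfib libraries of a group came from separate animals, according to the study's text. Whether the ARVM libraries of a group came from separate rats or cultures is not given in the sources used here, so for ARVM p-values measure only the spread between these libraries.

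A collagen molecule is a triple helix of 3 α chains, made in the endoplasmic reticulum as procollagen. Prolyl 4-hydroxylases stabilise the helix, prolyl 3-hydroxylases and lysyl hydroxylases modify single residues, and the chaperones HSP47 (SERPINH1) and FKBP65 (FKBP10) accompany the chains until export. Outside the cell, proteinases aided by PCOLCE remove the end pieces of the fibril-forming collagens, and lysyl oxidases start the cross-links that make fibres insoluble. In the heart, fibroblasts are the chief source of collagens I and III, whereas basement membrane collagen IV surrounds cardiomyocytes and vessels.

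In PH Cfib, 24 of the 25 genes were higher than in CO Cfib and 1, P4HA1, was lower. Of all 2115 listed genes, 58.2% were called higher and 39.4% lower by the same limma test, in which p-values were adjusted over listed genes that had been selected beforehand. A log2 fold change of at least 1 was reached by 14 of the 25, against 19.8% of the listed genes. The median log2 fold change was 2.54 over the 10 collagen chains (range 0.74 to 4.24) and 0.85 over the 15 enzymes and chaperones (range −0.59 to 2.47), beside 0.33 over all listed genes. Rescaling the libraries by the median of ratios lowered all changes by about the same amount, moving the median of listed genes by −0.27. It brought the medians to 2.26 for chains and 0.56 for enzymes, and the calls over all listed genes from 1230 higher and 833 lower to 839 higher and 869 lower. CO and PH values did not overlap for any of the 25 genes, which holds for 100% of the listed genes. Cfib values below are the signal as deposited. Its unit and any scaling for gene length are not stated, so levels are compared only within a gene, except in the sums and ratios below.

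Collagen chains took up a larger part of the listed signal in PH Cfib. The 10 chains held 3.44%, 2.93% and 2.47% of the summed signal of listed genes in CO Cfib 1 to 3, and 8.61%, 8.38% and 8.06% in PH Cfib 1 to 3. The enzymes and chaperones held 1.67%, 1.57% and 1.37% in CO and 2.95%, 2.87% and 2.80% in PH. The lowest PH library therefore lay above the highest CO library for both groups of genes, and the gap was wider for the chains. COL1A2 had the largest mean signal of the chains (2149 in CO and 6108 in PH), followed by COL6A1 (437 and 1280). The chain sums therefore follow COL1A2 most, and they add genes whose scaling is unknown.

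**Figure D1:**
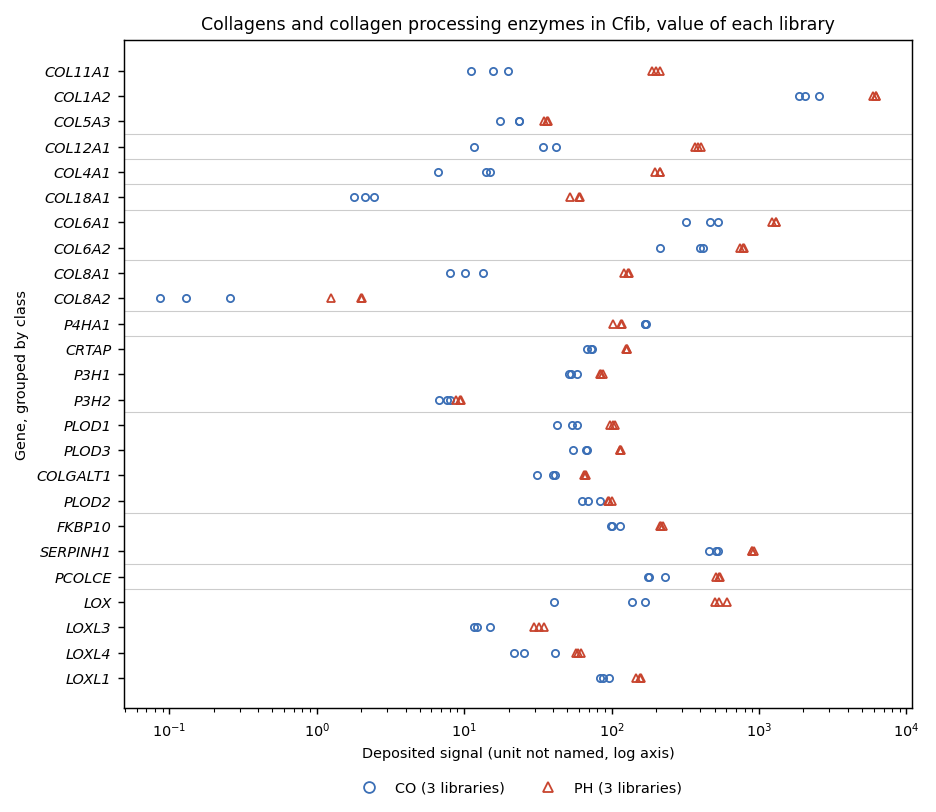
Signal of the 25 collagen and collagen processing genes in each bovine Cfib library, on a log axis, 1 point a library. The PH points lie to the right of the CO points for every gene except P4HA1, from COL18A1 with a 27.2-fold higher mean to P3H2 with a 1.24-fold higher mean.

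The only chain of collagen I listed in Cfib was COL1A2. Its signal was 2532, 1862 and 2052 in CO and 6232, 6171 and 5921 in PH, a 2.84-fold higher mean (2149 ± 346 against 6108 ± 165, SD, n = 3) with a log2 fold change of 1.52 ± 0.17 (SE, limma adjusted p = 0.000294). COL11A1, a minor chain that helps to set fibril diameter and is best known from cartilage, went from 19.9, 15.7 and 11.1 to 213, 201 and 189, a 12.9-fold rise (log2 3.64 ± 0.19 SE, limma adjusted p = 1.23e-05). COL5A3, a chain of the collagen V that starts fibrils, was 23.4, 23.4 and 17.4 in CO and 37.3, 36.6 and 34.8 in PH (1.69-fold). With COL5A3 at 1.69-fold and COL11A1 at 12.9-fold, the listed fibril-forming chains rose by unequal amounts, and the rise of COL1A2 lay between them. COL1A1, COL3A1, COL5A1 and COL5A2 are not in this table.

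The largest rises were those of COL18A1, COL4A1 and, narrowly above the fibril-forming COL11A1, COL12A1. None of these leading chains forms the main fibrils, but COL11A1 rose more than COL8A1. COL18A1, a basement membrane collagen whose end fragment is endostatin, was 2.45, 1.80 and 2.13 in CO and 60.7, 60.4 and 52.6 in PH. This 27.2-fold difference (log2 4.24 ± 0.10 SE, limma adjusted p = 1.07e-06) was the largest of the 25. COL4A1, a core chain of the basement membrane network, was 14.1, 14.95 and 6.62 in CO and 212, 213 and 196 in PH (17.4-fold, log2 4.09 ± 0.28 SE, limma adjusted p = 3.33e-05). Its usual partner COL4A2 is not listed. COL12A1, which lies on the surface of collagen I fibrils, was 42.2, 34.0 and 11.7 in CO and 403, 384 and 367 in PH (13.1-fold, log2 3.85 ± 0.43 SE). COL8A1, a network collagen of vessel walls and valves, was 10.1, 13.5 and 7.99 in CO and 130.2, 129.8 and 122 in PH (12.1-fold, log2 3.51 ± 0.17 SE). Its partner chain COL8A2 had a signal near 0, of 0.130, 0.259 and 0.0866 in CO and 2.02, 2.001 and 1.24 in PH. The 11.1-fold ratio of the COL8A2 means gives a log2 fold change of 1.24 at a pseudocount of 1 and of 2.87 at a pseudocount of 0.1, so its fitted size depends on that choice.

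The beaded filament collagen VI rose less. COL6A1 was 466, 525 and 319 in CO and 1311, 1313 and 1216 in PH (2.93-fold, log2 1.58 ± 0.19 SE, limma adjusted p = 0.000345). COL6A2 was 395, 415 and 211.4 in CO and 790.4, 784 and 739.6 in PH (2.26-fold, log2 1.24 ± 0.26 SE, limma adjusted p = 0.00359). CO Cfib 3 was the lowest library for both chains. The ratio of COL6A1 to COL6A2 was 1.18, 1.26 and 1.51 in CO and 1.66, 1.67 and 1.64 in PH, so both sets of ratios were separate, with CO Cfib 3 nearest to PH.

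Among the enzymes that act inside the cell, one stood apart in direction. P4HA1, the catalytic α subunit of the main prolyl 4-hydroxylase, was 168, 169 and 171 in CO and 103, 116 and 118 in PH. It fell by 0.59 on the log2 scale (SE 0.07, limma adjusted p = 0.000347) and remained lower in each fit that left out a library (−0.63 to −0.53). The CO libraries agreed closely for this gene (169.6 ± 1.62, SD, n = 3) and all lay above the PH libraries (112 ± 8.45). P4HB, the protein disulphide isomerase that is the other subunit of the same enzyme, is not one of the 25 genes and rose by 0.66 (log2, 1.57-fold).

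The prolyl 3-hydroxylase complex of P3H1 and CRTAP modifies collagen proline residues inside the endoplasmic reticulum. CRTAP was 73.8, 68.1 and 72.0 in CO and 127, 126 and 127 in PH (1.77-fold, log2 0.82 ± 0.05 SE). P3H1 was 52.7, 51.7 and 57.8 in CO and 83.6, 87.1 and 84.2 in PH (1.57-fold, log2 0.64 ± 0.06 SE). P3H2, an isoform that acts on basement membrane collagens, showed the smallest change of the 25, from 7.59, 6.70 and 8.06 to 8.75, 9.42 and 9.48 (1.24-fold, limma adjusted p = 0.0205). That call was lost without PH Cfib 2 (0.0760), without PH Cfib 3 (0.0746) and after the median of ratios, where the log2 difference was 0.02 (limma adjusted p = 0.857).

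Lysyl hydroxylases prepare the residues that later carry sugars and cross-links. PLOD1 was 53.9, 58.6 and 42.9 in CO and 98.3, 105 and 102 in PH (1.96-fold, log2 0.97 ± 0.12 SE). PLOD3, which also has glycosyltransferase activity, was 68.2, 67.3 and 54.7 in CO and 116, 114 and 113 in PH (1.81-fold). COLGALT1, which adds galactose to hydroxylysine, was 40.1, 41.2 and 31.4 in CO and 64.7, 66.9 and 65.9 in PH (1.75-fold). PLOD2, the isoform for the ends of fibrillar collagens, moved least of these 4, from 69.7, 82.9 and 63.2 to 100.2, 95.4 and 94.3 (1.34-fold, limma adjusted p = 0.00659), and its call was lost after the median of ratios (log2 0.14, limma adjusted p = 0.227). The ratio of PLOD2 to PLOD1 was 1.29, 1.41 and 1.47 in CO and 1.02, 0.909 and 0.925 in PH, without overlap.

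Both collagen chaperones rose. SERPINH1, the collagen-specific HSP47, was 511, 459.6 and 526 in CO and 898, 919.7 and 897 in PH (1.81-fold, log2 0.86 ± 0.09 SE, limma adjusted p = 0.000181). FKBP10 was 114, 101 and 98.5 in CO and 213, 224 and 216 in PH (2.08-fold, log2 1.05 ± 0.07 SE, limma adjusted p = 3.86e-05). Within each library P4HA1 thus moved against the chaperones, with a P4HA1 to SERPINH1 ratio of 0.329, 0.367 and 0.326 in CO and 0.114, 0.126 and 0.132 in PH. This ratio, and those of PLOD2 to PLOD1 and of LOX to LOXL1, were chosen after the values had been seen and are given without a test.

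Genes acting outside the cell rose as well. PCOLCE, which speeds removal of the C-terminal propeptide, was 230.2, 179.7 and 178 in CO and 541, 532 and 509.6 in PH (2.69-fold, log2 1.43 ± 0.11 SE, limma adjusted p = 6.41e-05). LOX, the founding lysyl oxidase, was 169, 138 and 40.4 in CO and 608, 538 and 504 in PH (4.75-fold, log2 2.47 ± 0.51 SE, limma adjusted p = 0.00352). CO Cfib 3 had the lowest value, and without it the log2 fold change was 1.84 (limma adjusted p = 1.08e-05). LOXL3 was 14.9, 11.7 and 12.3 in CO and 34.7, 32.4 and 29.6 in PH (2.48-fold), and LOXL4 was 41.4, 25.6 and 21.8 in CO and 58.9, 61.7 and 57.5 in PH (2.01-fold). LOXL1, which acts on elastic fibres, was 83.7, 96.5 and 86.8 in CO and 159, 156 and 147 in PH (1.73-fold). The ratio of LOX to LOXL1 was 2.02, 1.43 and 0.465 in CO and 3.84, 3.45 and 3.42 in PH, without overlap and with CO Cfib 3 lowest.

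Single libraries recurred at the low end of their group. CO Cfib 3 was the lowest CO library for 16 of the 25 genes (64.0%, beside 45.7% of 2108 listed genes without ties), and the values of COL12A1, LOX and COL4A1 show it best. PH Cfib 3 was the lowest PH library for 18 of 25 (72.0%, beside 38.8%). The PH libraries lay close together, with a median coefficient of variation of 3.67% over the 25 genes and 5.01% over all listed genes, whereas CO gave 15.2% and 13.7%.

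Genes that serve the same pathway but fall outside the gene families were read from fixed lists. Of 19 genes for procollagen folding, export and propeptide removal, 3 are listed in Cfib, and all 3 rose: SPARC, a collagen-binding glycoprotein, from 3552, 2728 and 2331 to 6264, 6124 and 6052 (log2 1.12), TXNDC5 (log2 0.79) and P4HB. The proline synthesis genes PYCR1 (log2 0.84) and ALDH18A1 (log2 0.25) also rose. Of the marker lists for other cells, 0 of 8 cardiomyocyte and 0 of 6 endothelial genes are listed in Cfib. Of 8 fibroblast markers, POSTN (log2 3.66) and TCF21 (log2 0.64) are listed and rose. Of 6 smooth muscle and pericyte markers 5 are listed, and 4 rose, led by RGS5 (log2 1.77), CSPG4 (log2 1.30) and ACTA2 (log2 1.23), while CNN1 fell by 0.68 (log2). RGS5 had a CO signal of 0.460, 0.290 and 0.227, below the pseudocount of 1, which understates its change (10.9-fold by means). Of 6 macrophage and leukocyte markers, CD68 rose (log2 0.51) and CD14 fell by 1.42 (log2). These genes moved in the same comparison as the collagens, and their part in the collagen result was not tested.

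In ARVM all 36 genes were higher after culture in PH-CM than in freshly isolated cells. Of all 7052 listed genes, 53.9% were called higher and 43.7% lower. A log2 fold change of at least 1 was reached by 33 of the 36 genes, against 32.5% of the listed genes. The median log2 fold change was 5.31 over the 16 collagen chains and 2.68 over the 20 enzymes and chaperones, beside 0.37 over all listed genes. Values here are counts divided by a library size factor, called normalised counts below, and are not scaled for length, so levels are compared only within a gene. In such bulk samples, fewer cells of a type and less RNA per cell cannot be told apart.

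Markers of other cells moved in the same comparison. All 8 cardiomyocyte markers fell (median log2 −3.37), including Myh6, the adult myosin heavy chain, from 320263, 323911 and 343020 to 7193, 7339 and 6194, and their summed normalised counts went from 1386230 to 1456310 in freshly isolated ARVM down to 116353 to 141636 in PH-CM ARVM. All 8 fibroblast markers rose (median log2 4.29), led by Thy1 (log2 9.95), Postn (log2 6.97) and Lum (log2 6.47), with a sum of 3546 to 4344 before and 37567 to 47264 after. Pdgfra, a receptor used to define fibroblasts, was 171, 126 and 108 in freshly isolated ARVM and 1696, 1701 and 2031 in PH-CM ARVM, and of the 8 markers Thy1 was at 0 in fresh 4 and fresh 6, with a log2 fold change of 10.84 without fresh 5. Of 6 smooth muscle and pericyte markers 4 rose, led by Cnn1 (log2 6.91), Acta2 (log2 5.07) and Myh11 (log2 3.14). Rgs5 (log2 −1.36) and Cspg4 (log2 −0.46) fell. The sum of all 6 went from 3419 to 4017 up to 16430 to 21514. Cnn1 had 11 fresh reads, and its log2 fold change was 5.99 without fresh 4. The 5 listed of 6 macrophage and leukocyte markers rose (median log2 3.53, sum 163 to 222 before and 1439 to 2020 after), and all 6 endothelial markers fell (median log2 −1.59, sum 7775 to 9117 before and 2753 to 3189 after). The part of these markers in the collagen result was not tested.

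**Figure D2:**
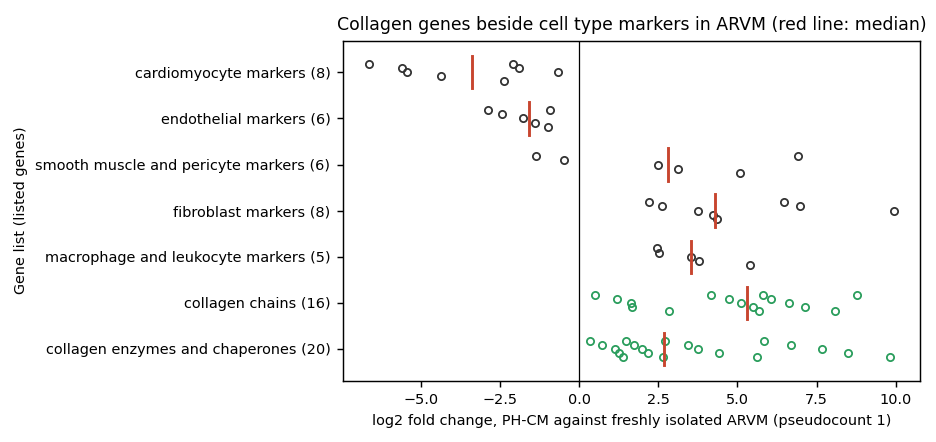
Log2 fold change of PH-CM against freshly isolated ARVM (log2 of value + 1) for each listed gene of the marker lists, the 16 collagen chains and the 20 enzymes and chaperones, 1 point a gene, with a red line at the median. All cardiomyocyte and endothelial points lie below 0, whereas all collagen, enzyme, fibroblast and macrophage points lie above 0. Of the smooth muscle and pericyte points, those of Rgs5 and Cspg4 lie below 0.

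The fibril-forming collagens, of which 8 of 11 are listed, spanned the whole range of the chains (log2 0.50 to 8.77). Col1a1 was 44.3, 72.8 and 73.3 in freshly isolated ARVM and 14965, 15324 and 20981 in PH-CM ARVM, a 269-fold higher mean (log2 8.07 ± 0.21 SE, limma adjusted p = 1.04e-07). Col1a2, which joins Col1a1 in the collagen I helix, was 119, 187 and 123 before and 17425, 18373 and 23907 after (139-fold, log2 7.13 ± 0.19 SE, limma adjusted p = 1.04e-07). Col3a1, the chain of the thinner collagen III fibres, was 886, 763 and 599 before and 43500.2, 28988 and 54872 after (56.7-fold, log2 5.79 ± 0.23 SE, limma adjusted p = 4.20e-07). The PH-CM values of all 3 chains lay far above the fresh ones, and library PH-CM ha211 was the highest for each. Col11a1 had no read in any freshly isolated library and 442, 399 and 469.7 normalised counts in PH-CM ARVM, so it was at least 369-fold higher, taking 3 reads over the fresh group as the floor.

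The collagen V chains, which start fibrils and limit their width, rose less than those of collagen I. Col5a1 was 135, 163 and 119 before and 6091, 5717 and 7025 after (45.3-fold, log2 5.50 ± 0.13 SE). Col5a2 was 741, 609 and 465 before and 15544, 13756 and 18528 after (26.4-fold, log2 4.73 ± 0.17 SE), and Col5a3 was 182, 195 and 152 before and 3229.9, 2629.7 and 3741 after (18.2-fold, log2 4.17 ± 0.15 SE). Col27a1, a fibril-forming collagen of cartilage, barely moved, from 128, 198 and 191 to 256, 230.4 and 233 (1.39-fold, log2 0.50 ± 0.20 SE, limma adjusted p = 0.0426). Its call was lost in 4 of 6 fits without a library, those without fresh 4 (0.0926), PH-CM ha2 (0.124), PH-CM ha209 (0.0751) and PH-CM ha211 (0.0818). It was also lost with edgeR after TMM scaling (adjusted p = 0.0538) and with DESeq2 (adjusted p = 0.0531).

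The balance between chains of one collagen type differed between the groups. The ratio of Col1a1 to Col1a2 normalised counts was 0.373, 0.389 and 0.597 in freshly isolated ARVM and 0.859, 0.834 and 0.878 in PH-CM ARVM. The ratio of Col5a1 to Col5a2 was 0.182, 0.267 and 0.256 before and 0.392, 0.416 and 0.379 after. In both, every PH-CM library lay above every fresh library, although the fresh ratios of collagen I rest on few reads. Further ratios were chosen after the values had been seen. Col3a1 to Col1a1, which compares different collagen types, was 20.0, 10.5 and 8.17 before and 2.91, 1.89 and 2.62 after. Col5a3 to Col5a1 was 1.35, 1.20 and 1.28 before and 0.530, 0.460 and 0.532 after. In each of these ratios Col1a1 or Col5a1 gained on the other gene. These ratios describe each library and were not tested.

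**Figure D3:**
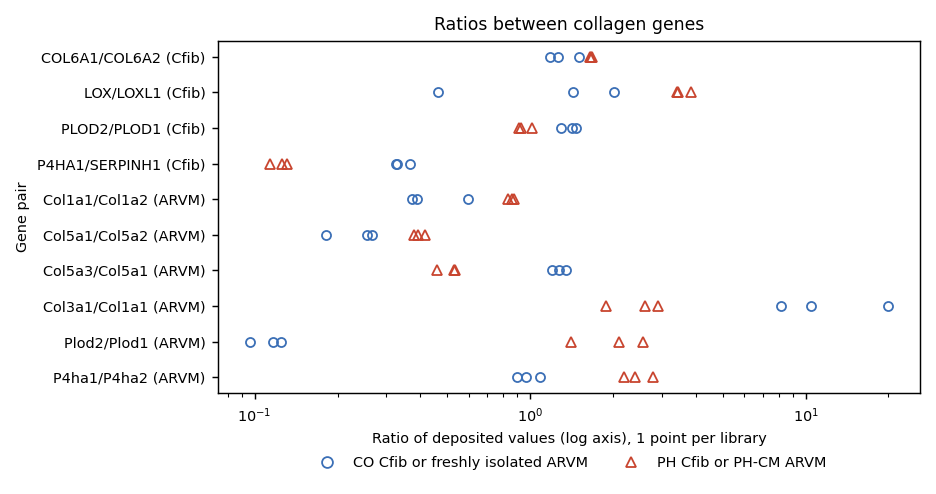
Ratios between related genes in each library, on a log axis, for Cfib (CO and PH) and ARVM (freshly isolated and PH-CM). In ARVM, Col1a1 to Col1a2 lies between 0.834 and 0.878 in PH-CM against 0.373 to 0.597 in freshly isolated cells. In Cfib, P4HA1 to SERPINH1 lies between 0.114 and 0.132 in PH against 0.326 to 0.367 in CO.

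Sequences before the annotated gene start are shown for 4 genes of this group, which were picked by hand and not by a fixed rule. They come from RefSeq on the rat build GRCr8, matched by symbol, while the counts were made on rn6. A window was found for 29 of the 36 genes, and Col1a1, Col3a1, Col14a1, Col6a2, Fkbp10, Lox and Loxl2 had none. Each line gives the 150 bases before that start, 5′ to 3′ on the gene's strand. Whether transcription begins there was not checked, so a stretch may hold transcribed sequence. Capitals mark the letters GGGCGG or CCGCCC, the core of the GC box bound by Sp1 family factors. The positions are chr2:204508986-204509135 (plus strand) for Col11a1, chr1:164040714-164040863 (plus strand) for P4ha3, chr11:56246632-56246781 (plus strand) for Col8a1 and chr4:33518407-33518556 (plus strand) for Col1a2.
Col11a1: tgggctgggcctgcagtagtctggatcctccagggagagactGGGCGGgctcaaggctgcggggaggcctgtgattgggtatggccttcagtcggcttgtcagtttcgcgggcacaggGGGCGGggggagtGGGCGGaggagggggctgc
P4ha3: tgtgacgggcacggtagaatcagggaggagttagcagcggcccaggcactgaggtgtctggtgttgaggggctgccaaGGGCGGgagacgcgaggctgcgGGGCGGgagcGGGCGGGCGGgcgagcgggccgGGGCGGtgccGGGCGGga
Col8a1: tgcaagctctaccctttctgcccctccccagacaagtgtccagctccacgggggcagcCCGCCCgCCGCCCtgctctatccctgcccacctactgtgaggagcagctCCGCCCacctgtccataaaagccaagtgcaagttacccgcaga
Col1a2: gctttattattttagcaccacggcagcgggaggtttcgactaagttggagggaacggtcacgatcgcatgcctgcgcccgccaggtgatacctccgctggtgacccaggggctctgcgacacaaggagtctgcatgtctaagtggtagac

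P4ha3 holds 6 matches in this stretch, and those that begin 40 and 36 bases before the start overlap. Col11a1 and Col8a1 hold 3 each, and Col1a2 holds none in this stretch, which may not be its promoter. In the 250 bases before the start, these letters occur on either strand in 22 of the 29 windows (75.9%), in 58.0% of 5284 windows of listed genes and in 30.5% of all 33469 rat windows. CCAAT or its reverse ATTGG occurs in 7 of the 29 (24.1%), in 34.95% of listed and in 34.0% of all windows. TATAA or TTATA occurs in 3 of the 29 (10.3%), in 13.3% of listed and in 24.0% of all windows. The AP-1 letters TGANTCA occur in 0 of the 29, in 4.56% of listed and in 6.34% of all windows. The TEAD letters GGAATG or CATTCC occur in 5 (17.2%), 10.05% and 12.1%, and the SMAD letters CAGAC or GTCTG in 15 (51.7%), 42.2% and 42.9%, in the same order. The motifs were chosen after the expression values had been seen, and a match describes letters in a window and not a bound site. Whether the number of matches goes with the size of the rise was not tested.

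**Figure D4:**
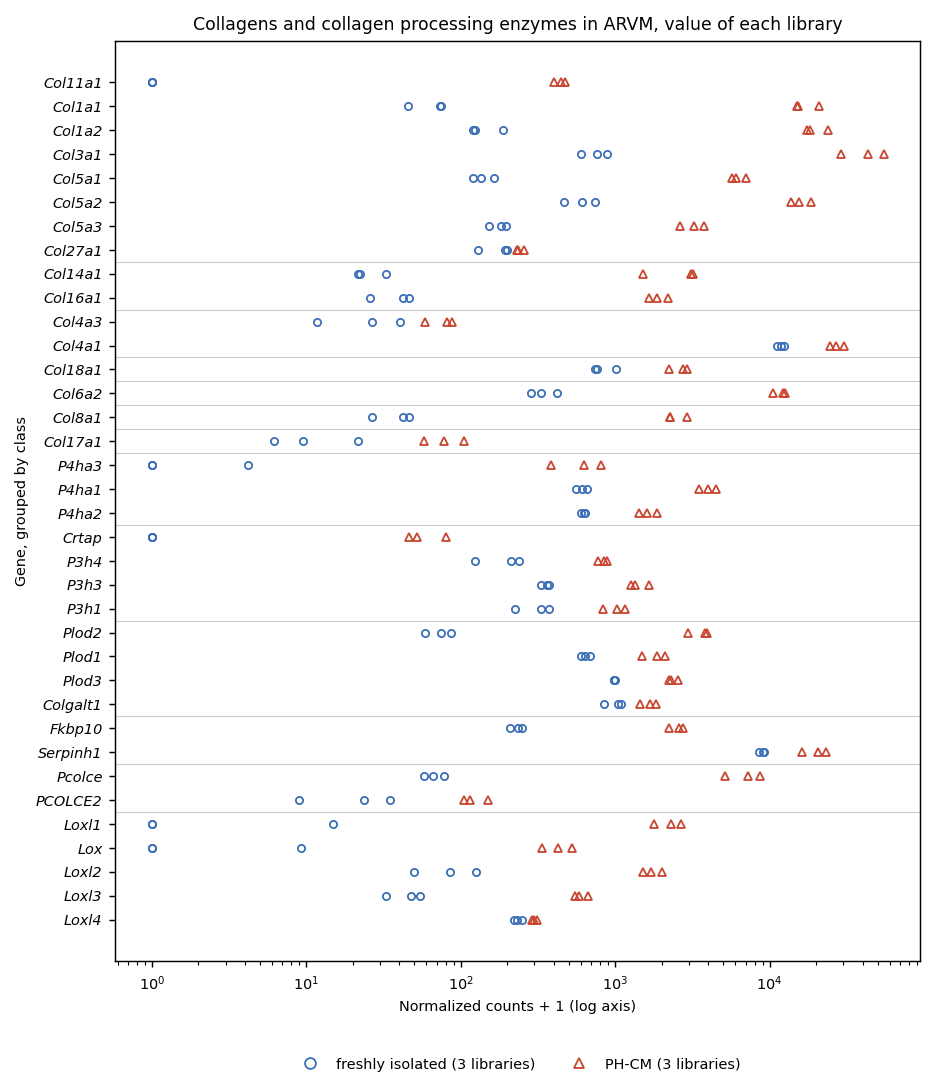
Normalised counts + 1 of the 36 collagen and collagen processing genes in each rat ARVM library, on a log axis, so that a value of 0 lies at 1. The PH-CM points lie to the right of the freshly isolated points for every gene, narrowly for Loxl4 (1.28-fold) and widely for Col1a1 (269-fold), and Col11a1 and Crtap have no read in any fresh library.

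Collagens outside the main fibrils fell into a high and a low set. Col14a1, a fibril-associated collagen of dense connective tissue, was 31.7, 21.4 and 20.7 before and 3099, 1522 and 3213 after (106-fold, log2 6.62 ± 0.31 SE), and library PH-CM ha209 had less than the others of its group. Col8a1 was 41.1, 45.0 and 25.8 before and 2277, 2268 and 2919 after (66.7-fold, log2 6.05 ± 0.22 SE). Col16a1, another fibril-associated chain, was 41.1, 45.0 and 24.8 before and 1869, 1663 and 2199 after (51.7-fold, log2 5.69 ± 0.24 SE). The collagen VI chain Col6a2 was 416, 329 and 282 before and 10567, 12221 and 12568 after (34.4-fold, log2 5.12 ± 0.14 SE, limma adjusted p = 1.05e-07). Its partners Col6a1 and Col6a3 are not in this table.

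The basement membrane chains rose by smaller factors, between 2.32-fold and 3.13-fold. Col4a1 had 11781, 12469 and 11082 normalised counts in freshly isolated ARVM and 24705, 27039 and 30196 in PH-CM ARVM (2.32-fold, log2 1.21 ± 0.09 SE, limma adjusted p = 9.12e-06). Col18a1 was 737, 1018 and 760.3 before and 2215, 2899.7 and 2754 after (3.13-fold, log2 1.65 ± 0.15 SE). Col4a3, a chain best known from kidney and lung, was 39.6, 10.7 and 25.8 before and 57.5, 80.2 and 86.3 after (2.94-fold, log2 1.67 ± 0.47 SE, limma adjusted p = 0.0097). Col17a1, a transmembrane collagen of epithelial anchors, was 20.6, 8.57 and 5.17 before and 77.1, 56.9 and 104 after (6.94-fold). The counts of Col4a3 and Col17a1 were low in every library, and their fresh values varied several-fold.

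Prolyl 4-hydroxylase was represented by all 3 of its α subunits. P4ha1 was 612, 658 and 559 before and 3507, 4017 and 4484 after (6.57-fold, log2 2.71 ± 0.10 SE, limma adjusted p = 3.39e-07). P4ha2 was 636, 603 and 624 before and 1605, 1432 and 1858 after (2.63-fold, log2 1.38 ± 0.10 SE). The ratio of P4ha1 to P4ha2 was 0.963, 1.09 and 0.896 before and 2.18, 2.80 and 2.41 after, without overlap; it was chosen after the values had been seen. P4ha3 had 3 reads in the whole fresh group, all in fresh 5, and 624, 381 and 812 normalised counts in PH-CM ARVM. The ratio of its pooled reads was 513, with a 95% counting interval of 175 to 2492 that covers counting error only. Its log2 fold change of 8.49 (limma adjusted p = 8.03e-06) was 9.18 without fresh 5.

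Genes of the prolyl 3-hydroxylase family rose too. Crtap reads were missing from all fresh libraries, whereas PH-CM ARVM held 45.4, 50.9 and 78.7 normalised counts, at least 48.9-fold more. P3h4 was 123, 237 and 212 before and 852, 774 and 878 after (4.38-fold), P3h3 was 373, 328 and 359 before and 1352, 1260.5 and 1664 after (4.03-fold), and P3h1 was 223, 372 and 331 before and 1030.0, 828 and 1155 after (3.26-fold). Fresh 4 was the lowest library for both P3h4 and P3h1. P3h3 and P3h4 belong to a complex with lysyl hydroxylase 1, the product of Plod1.

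Among the lysyl hydroxylases, Plod2 stood apart. It was 85.5, 73.9 and 57.8 before and 3822, 2958 and 3910.0 after (49.2-fold, log2 5.61 ± 0.17 SE, limma adjusted p = 1.35e-07). Plod1 was 684, 634 and 600.2 before and 1489.8, 2108 and 1858 after (2.84-fold, log2 1.49 ± 0.13 SE), and Plod3 was 994, 978 and 987 before and 2247, 2307 and 2569 after (2.41-fold, log2 1.26 ± 0.07 SE). Colgalt1 was 844, 1087 and 1047 before and 1674, 1442 and 1850.0 after (1.67-fold). The ratio of Plod2 to Plod1, chosen after the values had been seen, was 0.125, 0.117 and 0.0964 before and 2.57, 1.40 and 2.10 after, a log2 difference of 4.13.

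The chaperones differed in size of change. Fkbp10 was 208.9, 249 and 233 before and 2576, 2219 and 2740.4 after (10.9-fold, log2 3.44 ± 0.11 SE, limma adjusted p = 1.52e-07). Serpinh1 was 8598, 9196 and 9077 in freshly isolated ARVM and reached 20580.2, 16271 and 23154 (2.23-fold, log2 1.14 ± 0.12 SE, limma adjusted p = 6.61e-05).

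Of the propeptide removal enhancers, Pcolce was 57.0, 65.3 and 77.5 before and 7230.4, 5169 and 8660.3 after (105-fold, log2 6.68 ± 0.20 SE, limma adjusted p = 1.20e-07). PCOLCE2, so spelled in the rat table, was 7.91, 22.5 and 34.1 before and 104, 148 and 113 after (5.68-fold, log2 2.65 ± 0.50 SE). The counts of PCOLCE2 were low. Its PH-CM and fresh values did not overlap, which holds for 100% of the 7052 listed ARVM genes.

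All 5 lysyl oxidases rose, by very unequal factors. Loxl1 had 13 reads in the fresh group, all in fresh 5 (0, 13.9 and 0 normalised counts), and 2288, 1796 and 2681 in PH-CM ARVM. The ratio of its pooled reads was 440.3 (95% counting interval 257 to 827), and its log2 fold change was 9.82 (limma adjusted p = 4.41e-05) with all libraries, 11.12 without fresh 5 and 9.17 without fresh 4 or fresh 6. Lox had 8 reads in the fresh group, all in fresh 6 (0, 0 and 8.26), and 423, 336 and 528 in PH-CM ARVM, with a pooled ratio of 136 (95% counting interval 68.8 to 316). Its log2 fold change was 7.65 (limma adjusted p = 7.35e-05) with all libraries and 8.72 without fresh 6. Loxl2, which acts on basement membrane collagen IV, was 83.9, 125 and 48.6 before and 1511, 1716 and 2013 after (20.3-fold, log2 4.42 ± 0.31 SE). Loxl3 was 31.7, 53.6 and 46.5 before and 549, 579 and 663 after (13.6-fold, log2 3.76 ± 0.23 SE). Loxl4 had the smallest change of the 36 genes, from 231, 249 and 219 to 287, 311 and 295 (1.28-fold, limma adjusted p = 0.0272). Its call was lost without fresh 6 (0.0756), PH-CM ha209 (0.0624) or PH-CM ha211 (0.0557), and with DESeq2 (adjusted p = 0.0518).

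The share of listed counts held by the 36 genes was 0.152%, 0.164% and 0.154% in freshly isolated ARVM and 1.40%, 1.30% and 1.72% in PH-CM ARVM. Library PH-CM ha211 was the highest PH-CM library for 31 of the 36 (86.1%, beside 37.3% of 7024 listed genes without ties) and the lowest for none. Library PH-CM ha209 was the lowest for 22 (61.1%, beside 43.1%). The summed fibroblast markers had the same order at both ends, with the highest sum of 47264 in PH-CM ha211 and the lowest of 37567 in PH-CM ha209. So did the macrophage and leukocyte markers (2020 and 1439). Sums of smooth muscle and pericyte and of endothelial markers were also highest in PH-CM ha211 but lowest in PH-CM ha2. The cardiomyocyte sum was lowest in PH-CM ha211 (116353). The part of these markers in the order of the collagens was not tested.

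Some of these genes share genomic sequence with others. In the RefSeq annotation 15 of the 36 genes overlap another gene, and 2 of those neighbours are listed. Col1a1 overlaps Sgca, a sarcoglycan of muscle, which fell from 3235, 3354 and 3315 to 1287, 1259.6 and 1141. Loxl3 overlaps Htra2, a mitochondrial protease, which was 1141, 1322 and 1250.0 before and 1532, 1543 and 1487 after. The strand setting of the counting is not given in the sources used here, so reads from overlapping genes may be uncertain. Col3a1 and Col5a2, and likewise P3h4 and Fkbp10, are direct neighbours, and all 4 rose, as did all 36 genes.

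Of the 19 genes for procollagen folding, export and propeptide removal, 10 are listed in ARVM. Of these 9 rose and 1 fell (median log2 1.28). The procollagen N-proteinases Adamts2, from 14.2, 13.9 and 5.17 to 599, 550.4 and 671 (log2 5.76), and Adamts14 (log2 4.11) rose most. All 12 fresh reads of Adamts14 were in fresh 6, and its log2 fold change was 5.36 without that library and 3.49 without fresh 4 or fresh 5. They were followed by Creb3l1 (log2 2.64), a transcription factor for secretory cargo. Tmem38b, an endoplasmic reticulum cation channel needed for normal collagen processing, fell by 0.79 (log2). Pycr1, an enzyme of proline synthesis, also rose (log2 1.46).

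The 21 genes present in both tables make up 58.3% of the ARVM members and 84.0% of the Cfib members. Of these, 20 were higher in both comparisons and 1, P4HA1, was higher in PH-CM ARVM and lower in PH Cfib. Over all 1178 symbols present in both tables, 496 (42.1%) were higher in both, and 323 were higher in ARVM and lower in Cfib. The comparisons share no libraries, and they differ in species, contrast and unit, so the difference between them was not tested and genes were matched by symbol alone. The log2 fold change was larger in ARVM for 17 of the 21 and larger in Cfib for 4, which were COL18A1 (4.24 in Cfib and 1.65 in ARVM), COL4A1 (4.09 and 1.21), LOXL4 (1.03 and 0.36) and COLGALT1 (0.80 and 0.74). The order of the genes differed as well: PLOD2 had a log2 fold change of 0.43 in Cfib, the smallest rise of the 21, and of 5.61 in ARVM, whereas both basement membrane chains that led in Cfib were among the smaller rises in ARVM.

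**Figure D5:**
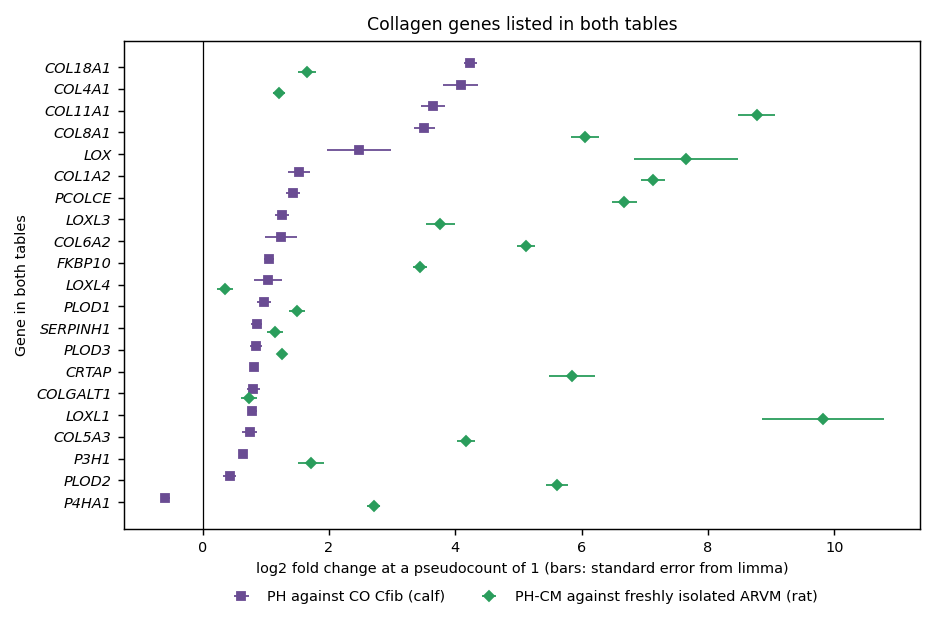
Log2 fold changes (log2 of value + 1) of the 21 genes listed in both tables, with bars for the standard error from limma, for PH against CO Cfib and PH-CM against freshly isolated ARVM. P4HA1 lies on opposite sides of 0 (−0.59 in Cfib and 2.71 in ARVM), and COL18A1 and COL4A1 lie further right in Cfib than in ARVM.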

How the data were processed

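Total RNA depleted of ribosomal RNA was sequenced. Per the labels and the study's methods, the authors aligned reads with HISAT2 to the bovine (bosTau8) and rat (rn6) genomes, assembled transcripts with StringTie and normalised with DESeq2. The deposited Cfib values are a signal whose unit and scaling for gene length are not stated, so its depth is unknown. The deposited ARVM signal is counts divided by a size factor. Whole reads were recovered from it for 100% of values within 0.01 reads, and the listed genes held 12122463 to 18842171 reads per library. Both tables hold only genes the authors selected.

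Within each table, limma 3.58.1 (R 4.3.3, eBayes with trend) was fitted to log2(value + 1) of all listed genes, p-values were adjusted by Benjamini-Hochberg, and 0.05 was the threshold. Fold changes on this scale understate the change where control values lie below the pseudocount in every library. Where only some fresh libraries were at 0, the fitted value can err either way. Loxl1 had a log2 fold change of 9.82 with limma, 8.73 with edgeR after TMM scaling and 8.88 with DESeq2. P4ha3 had 8.49, 8.84 and 8.99 in the same order. Folds of means use the values as deposited. A log2 fold change and its SE come from this fit. Tests were checked on simulated data. Alternatives were another pseudocount, scaling, filter, trend setting, minimum fold change, a replicate block, averaged PH libraries, each library left out, and edgeR 4.0.16 and DESeq2 1.42.0 on the recovered reads. Counting intervals (95%) and floors of 3 reads over a group cover counting error only.

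The genes, 9 further gene lists and tests were chosen with earlier results of these data known. Values in each library are given for the chains of collagens I, III, IV, V and VI, up to 3 chains per other collagen class, every enzyme and chaperone, genes in both tables and genes opposite to their class. From the further lists, counts and up to 3 genes with the largest change are given, and others named were picked after their values were seen. Figures were drawn with matplotlib 3.10.9.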

Additional observations from a re-analysis of the deposited data

How the results depend on the processing

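In Cfib, 24 genes rose and 1 fell. A minimum absolute log2 fold change of 1 left 14 higher and 0 lower. Leaving out single libraries gave 23 to 24 higher and 1 lower in each fit, the median of ratios 22, a minimum mean signal of 5 gave 23, and PH libraries averaged into 1 sample gave 18. That average leaves fewer samples and is stricter than the design, in which the libraries came from separate animals. The calls lost with it were those of P3H2, PLOD2, COL5A3, COL6A2, LOX and LOXL4. Over all listed genes it left 529 higher and 509 lower. In ARVM, 36 genes rose. Leaving out single libraries gave 34 to 36, a minimum mean of 50 gave 34 because it dropped low genes from the test, edgeR with TMM 35, DESeq2 34, edgeR with the authors' size factors 36 and a minimum log2 fold change of 1 gave 33. No gene was called lower in ARVM in any of these. Over all listed ARVM genes edgeR with TMM called 3736 higher and 3079 lower. No gene changed direction under any alternative run. In ARVM Col27a1 and Loxl4 lost their calls under some of these, Colgalt1 also fell short of the minimum log2 fold change, and Crtap and Col17a1 were the genes dropped by the minimum mean.

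CO and PH libraries share the numbers 1 to 3, and deviations of equally numbered libraries correlated at 0.258, 0.0312 and 0.259. For each PH library this was its highest correlation with a CO library, narrowly for PH Cfib 2 (0.0286 with CO Cfib 3). CO Cfib 2 in turn correlated better with PH Cfib 1 (0.102). Whether the numbers mark pairs or batches is not given in the sources used here, and the main fit used no pairs. With the replicate block 24 genes were higher and 1 lower, and over all listed genes 1191 were higher and 792 lower. No paired analysis was possible for ARVM because its groups share no replicate numbers. For genes with few or no reads in freshly isolated ARVM (Col11a1, Crtap, P4ha3, Lox, Loxl1), depth limits the fold to a bound or a wide interval, and fitted values move with the pseudocount.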

Other observations

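Receptors and breakdown of collagen were read from 2 further lists. Of 7 collagen receptors, 3 are listed in Cfib and were higher in PH: ITGA2 (log2 1.86), DDR1 (log2 0.78) and ITGA10 (log2 0.53). ITGA10 had a CO signal of 0.693, 0.816 and 0.430, below the pseudocount of 1, which understates its change. In ARVM 2 of the 7 are listed and were higher in PH-CM, Itga11 (log2 5.62), an integrin subunit for fibrillar collagen, and Ddr2 (log2 2.59), a receptor tyrosine kinase for fibrillar collagen. Itga11 had 9 reads in the fresh group, and its log2 fold change was 4.70 without fresh 5. Of 9 genes for collagen breakdown and uptake, 3 are listed in Cfib. MRC2, an endocytic collagen receptor, rose from 23.4, 24.8 and 13.5 in CO to 140.5, 138 and 127 in PH (log2 2.70), and MMP9 rose too (log2 2.65). The CO signal of MMP9 was 0.413, 0.993 and 0.714, also below that pseudocount (13.7-fold by means). CTSK, the collagen-cleaving cathepsin K, fell from 1866, 2106 and 2039 to 889, 967 and 941 (it fell by 1.10 on the log2 scale). In ARVM 4 of the 9 are listed and all were higher in PH-CM: Mrc2 (log2 6.84), Mmp2 (log2 3.61), Mmp14 (log2 3.12) and Ctsk (log2 2.58). Mrc2 was 0, 19.3 and 17.6 in the fresh libraries, and its log2 fold change was 5.42 without fresh 4 and 7.59 without fresh 5. The collagenolytic protease CTSK therefore differed in direction between the 2 comparisons, as did P4HA1, with CTSK and P4HA1 both lower in PH Cfib and higher in PH-CM ARVM. The difference between the comparisons was not tested.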
